A study of Homo sapiens with 8 samples.

Results

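Mitochondrial ribosomal proteins were examined in the transcriptome of A673, an established Ewing Sarcoma cell line that carries the EWS/FLI1 fusion, after treatment with JIB-04, a small-molecule inhibitor of Jumonji-domain histone demethylases. All 8 libraries came from A673 cells: 4 from cells given vehicle (DMSO) and 4 from cells given 2 µM JIB-04, both for 36 hours. The family was chosen with earlier results of these data known. Its genes were taken by name, as every row of the deposited expression table whose symbol is MRPL or MRPS followed by a number and, in a few cases, a letter. That gave 86 rows for 77 symbols, 48 named MRPL and 29 named MRPS, out of 65962 genes in the table. Of the 4 symbols with several identifiers (MRPL45, MRPS17, MRPS18B and MRPS36), the identifier with the highest mean was kept. All 77 genes passed the filter on low values (a mean of at least 1 FPKM), so all 77 were among the 17460 genes tested.

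The mitochondrial ribosome is a dedicated translation machine that makes the few proteins encoded by the mitochondrial genome, all of them core subunits of the respiratory chain and of ATP synthase. Its ribosomal RNAs are transcribed inside the organelle, whereas every one of its proteins is encoded in the nucleus, made in the cytosol and imported. Proteins of the large subunit are mostly named MRPL and surround the site of peptide bond formation and the exit tunnel, and proteins of the small subunit are mostly named MRPS and hold the mRNA and its decoding site. Many have relatives in the bacterial ribosome, and the others are found only in mitochondria.

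Levels are given as FPKM, fragments normalized to the length of the transcript and to the number mapped in the library, and so are comparable between genes per unit of length. The summed FPKM were 1346289 to 1370436 in the vehicle libraries and 1175407 to 1237186 in the JIB-04 libraries, and the step between the lowest values put the relative depth of the other libraries at 0.765 to 0.953 of that of vehicle replicate 1. Across all genes tested, libraries of 1 group correlated with each other at r = 0.977 to 0.985 and libraries of different groups at 0.879 to 0.905. Markers of Ewing Sarcoma (CD99, NKX2-2, NR0B1, STEAP1, PRKCB and FLI1) had group means of 60.4 to 1160 FPKM, and markers of blood, epithelial, endothelial, muscle and liver cells (PTPRC, EPCAM, PECAM1, MYOD1 and ALB) stayed at or below 1.68 FPKM in every library, with MYOD1 and ALB listed at 0 in vehicle. The paper's methods say that each group was treated in quadruplicate, but no source used here says that these were independent cultures. P-values therefore rest on a spread between samples that may be technical. In bulk RNA, fewer cells of a kind and less RNA per cell cannot be told apart.

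JIB-04 lowered the transcripts of most mitochondrial ribosomal proteins. Of the 77 genes, 56 were lower, 8 were higher and 13 did not pass the test (limma on log2(FPKM + 0.5), Benjamini-Hochberg adjusted p under 0.05 over all genes tested). Among all 17460 genes, 38.0% were lower and 34.2% were higher by the same test, against 72.7% and 10.4% of the mitochondrial ribosomal protein genes. A fall of at least 2-fold was found in 16 members (20.8%, against 11.8% of all genes), and a rise of at least 2-fold in 0 members, against 13.1% of all genes. The number of such falls depended on scaling. With FPKM rescaled to TPM, MRPS27, MRPL55, MRPL4, MRPL52, MRPL23, MRPL53, MRPL28 and MRPS7 fell by less than 2-fold. Their log2 fold changes were then -0.99 to -0.84. In 55 members every JIB-04 library lay below every vehicle library, and in 6 every JIB-04 library lay above. Non-overlapping groups of these kinds made up 35.4% and 31.9% of all genes. The median log2 fold change of the members was -0.42, beside -0.07 for all genes tested, and 60 members lay below that median of all genes.

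**Figure D1:**
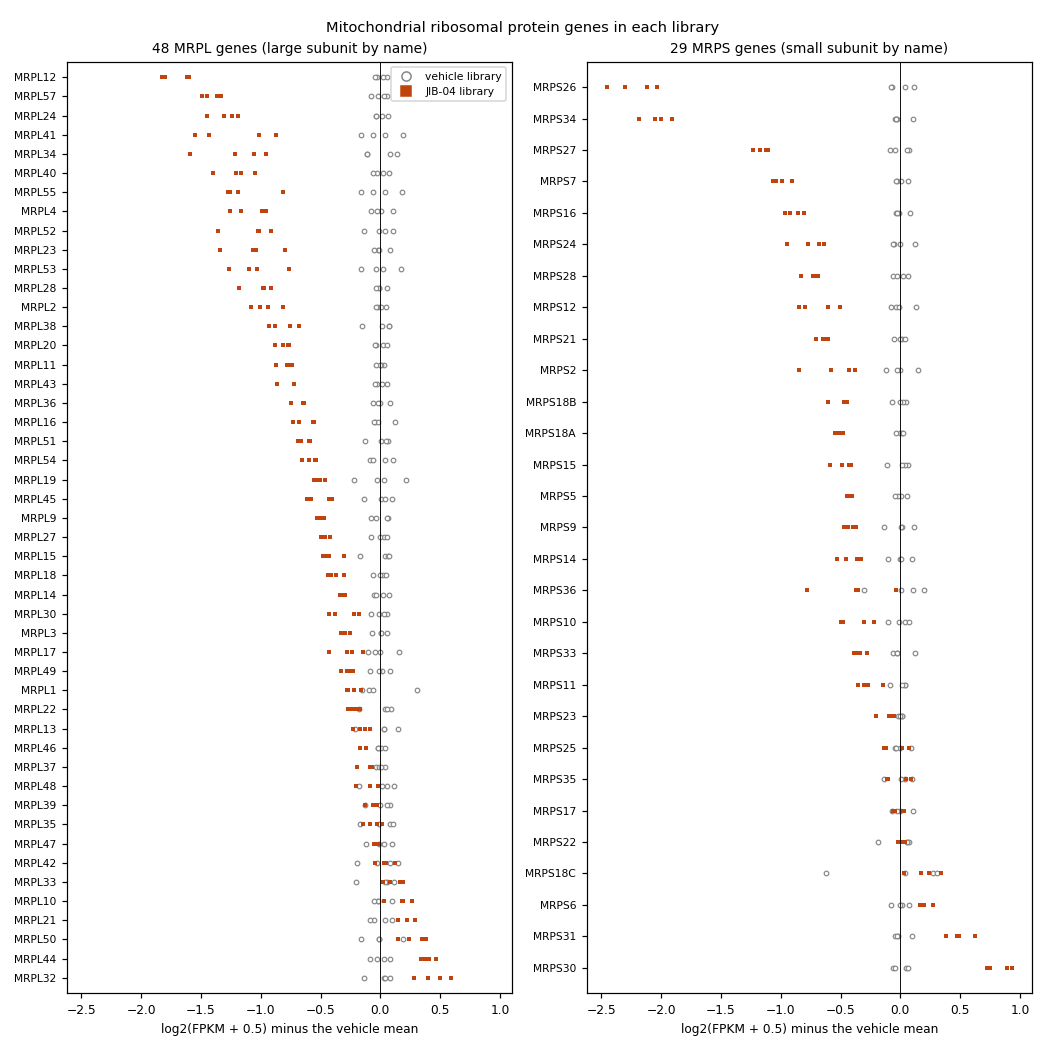
Log2(FPKM + 0.5) of each of the 77 mitochondrial ribosomal protein genes in each library, minus the gene's vehicle mean, with MRPL genes on the left and MRPS genes on the right in order of their log2 fold change. Open circles are the 4 vehicle libraries and filled squares the 4 JIB-04 libraries, and most rows have their squares to the left, with MRPS26 at -2.23 and MRPS30 at 0.82 as the ends of the range.

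Summed over the 77 genes, transcripts of mitochondrial ribosomal proteins came to 10517, 10856, 10701 and 10683 FPKM in the vehicle libraries and to 7532, 7373, 7207 and 7538 FPKM in the JIB-04 libraries. Every JIB-04 sum lay far below every vehicle sum, and the JIB-04 mean was 69.3% of the vehicle mean. Total FPKM also fell, to 89.2% of vehicle, so the share of all FPKM taken by these genes went from 0.788% ± 0.007 to 0.612% ± 0.009 (SD, n = 4 per group). The loss was spread unevenly. MRPS34 alone accounted for 11.9% of the net loss in FPKM, and MRPS34, MRPL51 and MRPL12 together for 24.4%.

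Of the 48 MRPL genes 35 were lower (72.9%), 5 were higher (10.4%) and 8 did not pass. Of the 29 MRPS genes 21 were lower (72.4%), 3 were higher (10.3%) and 5 did not pass. Among all genes tested 38.0% were lower and 34.2% were higher. The median log2 fold change was -0.47 over MRPL genes and -0.42 over MRPS genes. Taken in each JIB-04 library against the vehicle mean, the MRPL median was -0.50, -0.49, -0.44 and -0.41 and the MRPS median -0.42, -0.48, -0.43 and -0.37. The MRPL minus MRPS difference in these libraries was -0.080, -0.010, -0.004 and -0.040, so the MRPL median was the lower in all 4. These 4 differences averaged -0.03 with an SD of 0.03, which is a spread between libraries and not between genes. Over genes, the log2 fold changes had an SD of 0.52 in MRPL and 0.63 in MRPS. The difference of the group medians was -0.05, and it came to -0.02 under quantile normalization and -0.03 without vehicle replicate 1. Falls of at least 2-fold were found in 12 MRPL genes (25%) and in 4 MRPS genes (13.8%), against 11.8% of all genes, and the difference between the subunits was not tested. Both numbers were smaller in TPM, where MRPS27, MRPS7 and the MRPL genes named above fell by less than 2-fold.

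The name does not always give the place of a protein in the ribosome: MRPS30 and MRPS18A are named for the small subunit but sit in the large one, and MRPS36 has since been assigned to the 2-oxoglutarate dehydrogenase complex. Sorted by place, 36 of 50 large-subunit genes were lower (72%) and 6 were higher (12%). Of 26 small-subunit genes 19 were lower (73.1%) and 2 were higher (7.69%), against 38.0% and 34.2% of all genes. The medians were the same as by name to 2 decimals (-0.47 and -0.42). In sums of FPKM the balance between the subunits depended on 1 gene. The summed MRPL level was 1.78, 1.84, 1.84 and 1.84 times the summed MRPS level in the vehicle libraries and 1.87, 1.89, 1.92 and 1.89 times it with JIB-04. Without MRPS34 the same ratio was 2.11 ± 0.02 in vehicle and 1.99 ± 0.02 with JIB-04 (SD, n = 4 per group), so its direction turned.

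Among small-subunit proteins, MRPS26 and MRPS34 had the deepest falls of all 77 genes. Both belong to the proteins that mitochondria added to the small subunit, and neither has a bacterial relative. MRPS26 (chr20:3045945-3048254, plus strand, in GRCh38 by GENCODE release 29) was at 103, 90.8, 90.4 and 97.9 FPKM in the vehicle libraries and at 22.8, 21.6, 17.01 and 18.98 FPKM in the JIB-04 libraries (log2 fold change -2.23, SE 0.09, limma adjusted p = 5.33e-08). Its 4 JIB-04 libraries lay together, far below the vehicle libraries, at 21.0% of the vehicle mean. MRPS34 (chr16:1771890-1773155, minus strand), which is required for a stable small subunit, was at 552, 498, 503 and 499 FPKM in the vehicle libraries and 136, 127, 112 and 124 FPKM with JIB-04 (log2 fold change -2.04, SE 0.06, limma adjusted p = 9.28e-09). In vehicle it was the most abundant MRPS transcript and the second of all 77 genes, and vehicle replicate 1 stood above the other vehicle libraries. The groups were apart in both genes. For any gene whose groups are apart, the exact permutation test (two-sided) gives p = 0.0286, the smallest possible with 4 libraries against 4.

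The promoters of the genes with the deepest falls are shown so that their letters can be set beside those of raised genes. Each is the RefSeq window in GRCh38.p14 from 250 bases before to 50 bases after the first listed start, written 5′ to 3′ on the strand of the gene, and capitals mark matches to the motifs described further on (in MRPS26 and MRPS34 the ETS core CCGGAAG, here read from the other strand).
MRPS26 (chr20:3045802-3046101, plus strand): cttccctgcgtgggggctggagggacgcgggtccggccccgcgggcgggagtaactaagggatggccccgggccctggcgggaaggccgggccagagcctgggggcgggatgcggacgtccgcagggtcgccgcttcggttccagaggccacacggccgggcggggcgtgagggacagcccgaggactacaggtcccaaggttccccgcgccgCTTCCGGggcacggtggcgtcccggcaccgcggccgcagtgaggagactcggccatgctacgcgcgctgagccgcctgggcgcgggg
MRPS34 (chr16:1773085-1773384, minus strand): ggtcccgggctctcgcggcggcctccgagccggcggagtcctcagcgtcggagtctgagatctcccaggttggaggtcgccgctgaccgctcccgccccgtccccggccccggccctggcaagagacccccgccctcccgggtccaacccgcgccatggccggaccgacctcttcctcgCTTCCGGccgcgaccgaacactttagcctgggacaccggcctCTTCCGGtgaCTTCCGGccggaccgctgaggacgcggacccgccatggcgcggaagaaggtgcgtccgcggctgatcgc
MRPL12 (chr17:81703117-81703416, plus strand): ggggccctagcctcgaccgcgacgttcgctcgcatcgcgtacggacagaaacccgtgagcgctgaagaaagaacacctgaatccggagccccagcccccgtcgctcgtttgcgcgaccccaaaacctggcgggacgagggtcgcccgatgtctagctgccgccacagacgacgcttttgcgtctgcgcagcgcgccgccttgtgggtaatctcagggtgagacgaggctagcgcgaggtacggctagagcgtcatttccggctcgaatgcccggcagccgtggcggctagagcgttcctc
The MRPS34 window holds 3 ETS matches, the MRPS26 window 1, and that of MRPL12 holds none of the motifs searched.

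The other small-subunit falls were smaller. MRPS27 (chr5:72219409-72320646, minus strand), a mitochondria-specific protein with pentatricopeptide repeats, was at 104, 107, 116 and 115 FPKM in the vehicle libraries and 48.4, 46.6, 50.9 and 50.2 FPKM with JIB-04 (log2 fold change -1.16, SE 0.05, limma adjusted p = 8.25e-08). MRPS7 (chr17:75261674-75266373, plus strand), which helps to nucleate the head of the small subunit near the decoding site, went from 170.4, 182, 175 and 169 FPKM to 82.6, 87.1, 84.6 and 92.6 FPKM (log2 fold change -1.001, SE 0.05, limma adjusted p = 1.01e-07). In both genes the JIB-04 libraries were closely grouped and well apart from the vehicle libraries. MRPS16, which binds the body of the small subunit, fell from 259.9 ± 9.82 to 140.3 ± 6.91 FPKM (mean ± SD over 4 libraries a group, here and below, log2 fold change -0.89, SE 0.05, limma adjusted p = 2.08e-07). MRPS24, which lies at the mRNA entrance, fell from 291 ± 17.1 to 172 ± 15.8 FPKM (log2 fold change -0.76, SE 0.07, limma adjusted p = 9.23e-06). MRPS12, the relative of the bacterial protein in which streptomycin resistance arises, at the decoding centre, fell from 132 ± 8.32 to 82.2 ± 9.19 FPKM (log2 fold change -0.69, SE 0.08, limma adjusted p = 4.66e-05). Thus, the decoding-side proteins MRPS7 and MRPS12 were both lower, with no overlap between the groups.

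**Figure D2:**
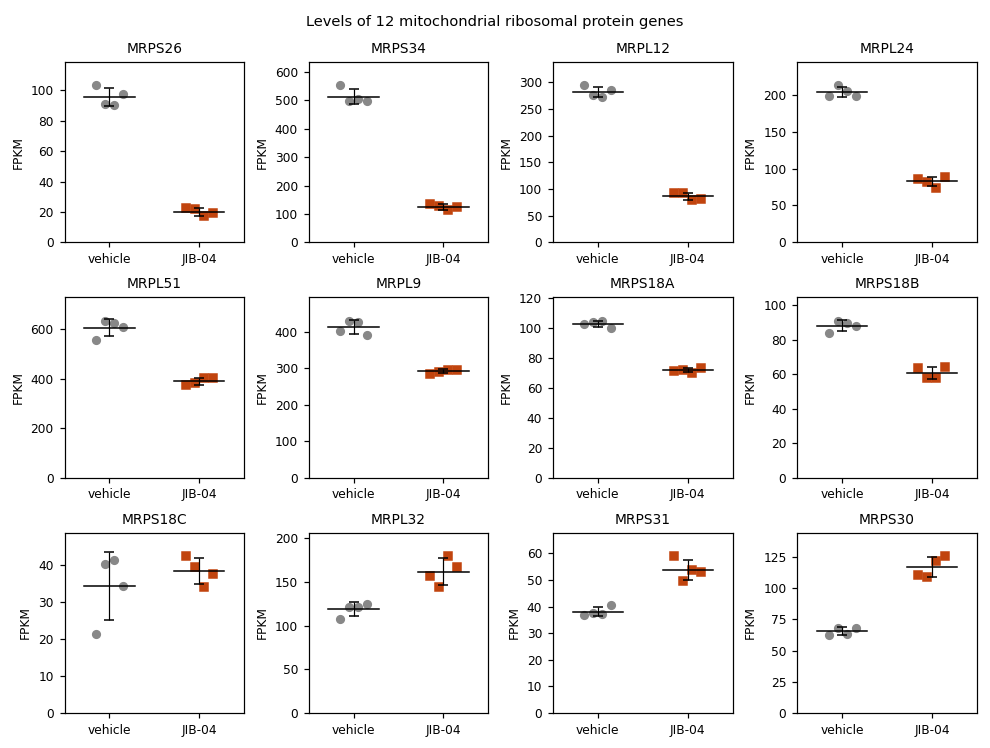
FPKM of 12 mitochondrial ribosomal protein genes in the 4 vehicle libraries (circles) and the 4 JIB-04 libraries (squares), with the mean as a line and the SD as a bar, each panel on its own axis from 0. MRPS26, MRPS34, MRPL12 and MRPL24 lie more than 2-fold lower with JIB-04, MRPL32, MRPS31 and MRPS30 lie higher, and the groups of MRPS18C overlap.

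In the large subunit the deepest fall was in MRPL12 (chr17:81703357-81707526, plus strand), the stalk protein that recruits translation factors to the ribosome. It was at 294, 276, 273 and 286 FPKM in the vehicle libraries and 92.6, 91.8, 79.3 and 80.6 FPKM with JIB-04 (log2 fold change -1.71, SE 0.06, limma adjusted p = 2.1e-08), and its JIB-04 libraries were at 30.5% of vehicle on average. The other stalk proteins differed from it. MRPL10, the base that MRPL12 binds, was at 29.4, 31.9, 29.5 and 28.7 FPKM in the vehicle libraries and 33.8, 35.97, 30.5 and 34.02 FPKM with JIB-04, and was called higher (log2 fold change 0.17, SE 0.06, limma adjusted p = 0.0414) although its groups overlapped and the call was lost in 7 of 18 alternative settings. MRPL11, which shapes the stalk base, fell from 162 ± 3.23 to 93.3 ± 3.72 FPKM (log2 fold change -0.79, SE 0.04, limma adjusted p = 1.92e-07). The genes of the stalk thus ranged from a deep fall to a small rise.

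Of the proteins around the exit tunnel, through which the new peptide leaves toward the inner membrane, MRPL4, MRPL17, MRPL22, MRPL23, MRPL24 and MRPL45 were lower, and MRPL47 did not pass (log2 fold change -0.03, SE 0.05, limma adjusted p = 0.576). These genes were picked by place with their values known and were not a list of the design. The pick was not complete for this site, and MRPL39 (-0.07, not passed) and MRPL44 (0.40, higher) were not part of it. MRPL4 fell from 127 ± 6.93 to 59.6 ± 5.95 FPKM (log2 fold change -1.09, SE 0.08, limma adjusted p = 1.11e-06), and MRPL23 from 41.96 ± 1.68 to 20.04 ± 3.098 FPKM (log2 fold change -1.06, SE 0.10, limma adjusted p = 1.11e-05). MRPL45, which anchors the ribosome to the inner membrane, fell from 35.9 ± 2.45 to 25.1 ± 1.86 FPKM (log2 fold change -0.51, SE 0.07, limma adjusted p = 0.000168). MRPL22 was at 146, 176, 170.4 and 172 FPKM in the vehicle libraries and 137, 144, 147 and 140.4 FPKM with JIB-04 (log2 fold change -0.22, SE 0.06, limma adjusted p = 0.0096), with 1 vehicle library inside the JIB-04 range. Its call was lost when FPKM were rescaled to TPM or by median ratios. MRPL24, also at the tunnel exit, belonged to the deepest falls, from 199, 213, 205 and 198 FPKM in vehicle to 85.8, 81.9, 74.2 and 89.1 FPKM with JIB-04 (log2 fold change -1.30, SE 0.06, limma adjusted p = 8.85e-08).

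Of the remaining large-subunit falls, those of MRPL57, MRPL41, MRPL34 and MRPL40 were the largest. MRPL57 (chr13:21176645-21179084, plus strand), a small mitochondria-specific protein, was at 60.6, 57.5, 55.1 and 59.4 FPKM in the vehicle libraries and 22.8, 22.2, 20.9 and 20.3 FPKM with JIB-04 (log2 fold change -1.41, SE 0.06, limma adjusted p = 3.92e-08). Its libraries were tight in both groups, and the JIB-04 libraries averaged 37.0% of vehicle. MRPL41 fell from 66.3 ± 6.95 to 28.6 ± 6.499 FPKM (log2 fold change -1.22, SE 0.15, limma adjusted p = 6.34e-05), MRPL34 from 144 ± 12.9 to 62.6 ± 11.5 FPKM (log2 fold change -1.21, SE 0.13, limma adjusted p = 2.46e-05) and MRPL40 from 29.2 ± 1.21 to 12.4 ± 1.28 FPKM (log2 fold change -1.21, SE 0.08, limma adjusted p = 8.52e-07). In MRPL41 and MRPL34 the JIB-04 libraries were more spread, with replicates 3 and 4 below replicates 1 and 2. The most abundant member in vehicle was MRPL51, at 555, 634, 627 and 609.5 FPKM, and it was at 375, 382, 401 and 403 FPKM with JIB-04 (log2 fold change -0.63, SE 0.05, limma adjusted p = 2.41e-06). No MRPL51 library with JIB-04 reached the lowest vehicle library. The other 4 of the 12 MRPL genes that fell at least 2-fold were MRPL55 (-1.14), MRPL52 (-1.08), MRPL53 (-1.04) and MRPL28 (-1.01), and MRPL2 (-0.96) lay just short of that size.

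The 8 members that were higher with JIB-04 came from both subunits and none rose 2-fold. MRPS30 (chr5:44808925-44820428, plus strand), which despite its name lies in the large subunit, was at 62.7, 67.8, 63.5 and 68.4 FPKM in the vehicle libraries and 111, 109, 122 and 125 FPKM with JIB-04 (log2 fold change 0.82, SE 0.06, limma adjusted p = 1.49e-06). MRPS31 (chr13:40729135-40771173, minus strand), a mitochondria-specific small-subunit protein, was at 36.9, 37.5, 37.2 and 40.6 FPKM in the vehicle libraries and 58.9, 49.6, 53.6 and 52.99 FPKM with JIB-04 (log2 fold change 0.49, SE 0.06, limma adjusted p = 7.06e-05). In both, the lowest JIB-04 library lay well above the highest vehicle library. MRPL32, which matures by cleavage by the m-AAA protease before it joins the ribosome, was at 108, 121, 122 and 125 FPKM in the vehicle libraries and 157, 144, 179 and 168 FPKM with JIB-04 (log2 fold change 0.44, SE 0.07, limma adjusted p = 0.000489). MRPL44, a protein related to RNase III, went from 46.9, 52.6, 48.9 and 50.8 FPKM to 64.6, 63.1, 66.02 and 68.9 FPKM (log2 fold change 0.40, SE 0.05, limma adjusted p = 8.69e-05). MRPL32 and MRPL44 likewise had no library in common between the groups. The rises of MRPL50 (0.28), MRPS6 (0.20) and MRPL21 (0.20) had adjusted p of 0.0166, 0.00225 and 0.00759 by limma, and the groups of MRPL50 overlapped. MRPL50 was the least abundant member in vehicle, at 18.4 ± 1.92 FPKM without and 22.4 ± 1.69 FPKM with JIB-04.

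The promoters of the most raised genes, MRPS30 and MRPS31, are shown for comparison with those of the deepest falls, written in the same way. The capitals in MRPS30 mark the YY1 motif AANATGGCG just after the start, and in MRPS31 an ETS core like that of MRPS26 and MRPS34 but on the strand of the gene.
MRPS30 (chr5:44808697-44808996, plus strand): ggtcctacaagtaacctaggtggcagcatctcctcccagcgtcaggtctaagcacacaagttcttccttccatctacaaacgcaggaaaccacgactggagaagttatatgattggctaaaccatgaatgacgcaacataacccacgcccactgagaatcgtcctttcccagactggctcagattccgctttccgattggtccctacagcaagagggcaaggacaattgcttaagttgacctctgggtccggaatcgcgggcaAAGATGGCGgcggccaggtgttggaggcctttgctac
MRPS31 (chr13:40771141-40771440, minus strand): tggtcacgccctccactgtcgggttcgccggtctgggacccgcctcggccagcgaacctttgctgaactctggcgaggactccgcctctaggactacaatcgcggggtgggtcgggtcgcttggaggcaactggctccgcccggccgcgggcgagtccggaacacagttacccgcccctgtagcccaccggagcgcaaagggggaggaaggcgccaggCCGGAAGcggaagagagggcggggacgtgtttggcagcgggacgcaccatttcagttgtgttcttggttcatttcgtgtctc
An ETS match therefore stood in the window of a raised gene as well as in those of MRPS26 and MRPS34, but not in that of MRPL12.

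The MRPS18 family holds 3 genes related to a single bacterial protein, and their products occupy different sites of the ribosome, MRPS18A in the large subunit and MRPS18B and MRPS18C in the small one. MRPS18A was at 103, 104, 105 and 100.4 FPKM in the vehicle libraries and 71.7, 72.1, 70.3 and 73.6 FPKM with JIB-04 (log2 fold change -0.52, SE 0.04, limma adjusted p = 1.54e-06), and MRPS18B at 83.95, 90.9, 89.6 and 88.1 FPKM and 63.5, 57.6, 57.8 and 64.3 FPKM (log2 fold change -0.53, SE 0.05, limma adjusted p = 1.43e-05). Both fell by nearly the same amount, without overlap. MRPS18C was at 21.5, 40.3, 41.4 and 34.3 FPKM in the vehicle libraries and 42.3, 39.4, 34.04 and 37.6 FPKM with JIB-04 and did not pass the test (log2 fold change 0.20, SE 0.19, limma adjusted p = 0.375). Vehicle replicate 1 was the low library there, and without it the log2 fold change was -0.01. MRPS36 was at 58.9, 83.6, 78.5 and 73.1 FPKM in the vehicle libraries and 56.2, 42.2, 56.8 and 70.9 FPKM with JIB-04. Its groups overlapped and its call stood at the threshold (log2 fold change -0.39, SE 0.16, limma adjusted p = 0.0499) and was lost in 12 of 18 alternative settings.

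Members that did not pass the test lay between log2 fold changes of -0.23 (MRPL1, adjusted p = 0.0543 by limma) and 0.20 (MRPS18C). Among them MRPS17 was at 25.7 ± 1.34 FPKM without and 25.4 ± 0.836 FPKM with JIB-04, MRPS22 at 90.5 ± 7.43 FPKM without and 91.1 ± 1.79 FPKM with JIB-04 and MRPL47 at 150.2 ± 9.76 FPKM without and 147 ± 2.27 FPKM with JIB-04. Small changes of this kind depended on the scale. Rescaling FPKM to TPM moved the median of all genes upward by 0.15. In TPM 48 of the 77 members were lower and 13 were higher, beside 5424 and 7061 of all 17460 genes tested. The size of the upward move decided the direction of MRPL46, MRPS23 and MRPL37. They were called lower in FPKM but had log2 fold changes of 0.03, 0.05 and 0.06 in TPM, without a call. The median of the members in TPM was -0.26, beside 0.08 for all genes.

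Of 46 genes with a bacterial relative 35 were lower (76.1%) and 4 were higher (8.7%), with a median log2 fold change of -0.43. Of 30 mitochondria-specific genes 20 were lower (66.7%) and 4 were higher (13.3%), with a median of -0.42, and the difference between the classes was not tested. Among all genes tested 38.0% were lower and 34.2% were higher. The mitochondria-specific genes were more spread, with an SD of 0.71 over genes against 0.46, and they held both ends of the range, MRPS26 and MRPS30. In the small subunit 13 of 16 genes with a bacterial relative were lower (81.25%) and 1 was higher (6.25%). There, 6 of 10 mitochondria-specific genes were lower (60%) and 1 was higher (10%). Classes follow the naming of ribosomal proteins across species, in which MRPS18A and MRPS18B count as mitochondria-specific, and MRPS36 was put in neither class.

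Members with GC-rich transcripts had the larger falls. Over the 77 members the log2 fold change and the median GC content of the protein-coding transcripts of a gene had a Spearman correlation of -0.66 (Pearson r = -0.66), and the correlation was -0.72 over the 48 MRPL genes and -0.55 over the 29 MRPS genes. These are correlations across genes, which share the same 8 libraries and are not independent replicates. Over 12198 protein-coding genes tested it was -0.32. Among the 26 members with the lowest GC content (34.96% to 46.4%), 10 were lower (38.5%) and 5 were higher (19.2%), with a median log2 fold change of -0.08. Of the 25 members of middle GC content 20 were lower (80%) and 3 were higher (12%), with a median of -0.45. In the 26 members with the highest GC content (54.1% to 71.9%), all genes were lower, 13 of them at least 2-fold (50%), and the median was -0.99. Of all genes tested 38.0% were lower, 34.2% were higher and 11.8% were at least 2-fold lower. Such shares within each range of GC content are not given here. Protein-coding genes in the same ranges of GC content had medians of 0.28, -0.05 and -0.41, so that the median of the members lay below in each range.

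**Figure D3:**
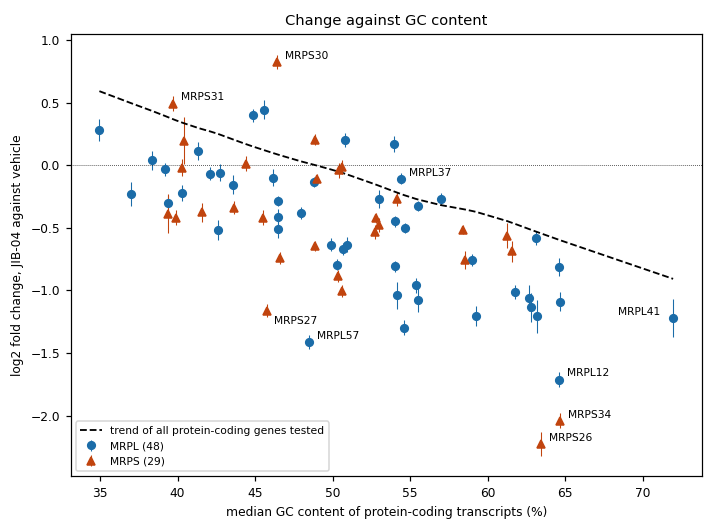
Log2 fold change (JIB-04 against vehicle, log2(FPKM + 0.5) scale, bars are the SE from limma) of each member against the median GC content of its protein-coding transcripts in percent, with MRPL genes as circles and MRPS genes as triangles. The dashed line is the trend of all protein-coding genes tested, and 66 of the 77 members lie below it.

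Libraries of 1 group also differed in how their values followed GC content. The median of the 26 high-GC members minus that of the 26 low-GC members, relative to the mean of the group, was 0.20, -0.03, -0.05 and -0.09 in the vehicle libraries and 0.13, 0.13, -0.17 and -0.06 in the JIB-04 libraries. Against the vehicle mean the same measure was -0.71, -0.67, -1.06 and -0.93 with JIB-04, which is larger than the spread within either group. Over protein-coding genes tested, each library's deviation from its own group mean was also correlated with GC content. Spearman correlations were 0.60, -0.02, -0.14 and -0.50 in vehicle and 0.31, 0.50, -0.50 and -0.28 with JIB-04. That of the log2 fold change was -0.32, and a rank correlation gives no size of a deviation. With the trend of all protein-coding genes on GC content removed, the medians were -0.42 for MRPL and -0.36 for MRPS genes. Farthest below the trend were MRPS26, MRPS34 and MRPL57, at -1.68, -1.44 and -1.43 relative to it, and farthest above was MRPS30, at 0.74. Transcript length had a Spearman correlation of 0.14 with the log2 fold change over the 77 members. The part of library preparation in the relation with GC content was not tested.

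Promoters from RefSeq (GRCh38.p14, first listed start of each gene) were matched to 68 of the 77 members and searched on both strands for 5 motifs known from housekeeping and mitochondrial genes, none of which shared bases with another in these windows. The ETS core CCGGAAG, bound by GABP and other ETS factors, was present in 28 of 68 windows (41.2%), against 14.2% of the promoters of 15843 protein-coding genes and 10.7% of all 27305 promoters. AANATGGCG, the motif of YY1, was present in 18 (26.5%), against 4.81% of protein-coding genes and 3.37% of all promoters. In 16 of those 18 a match lay in the 50 bases after the start. Either of the 2 motifs was present in 61.8% of member windows and in 18.0% of those of protein-coding genes, and 4 members held both. The NRF1 core GCGCATGC was found in 6 windows (8.82%, against 4.26% of protein-coding genes and 3.27% of all promoters), the E-box CACGTG in 6 (8.82%, against 8.88% and 7.43%) and the TATA box TATAAA in 2 (2.94%, against 9.63% and 11.95%).

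An ETS match was found in 22 of 51 lower, 1 of 6 higher and 5 of 11 members that did not pass, and a YY1 match in 13, 3 and 2 of them. The median log2 fold change was -0.61 in the 28 members with an ETS match and -0.42 in the 40 without, and -0.40 in the 18 with a YY1 match and -0.51 in the 50 without. A match is a run of letters in the reference and not a measured binding site.

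A protein-coding neighbour on the other strand with its start within 1000 bases was annotated for 17 of the 77 members (22.1%), against 9.89% of the protein-coding genes tested. One such pair consists of members on both sides, MRPS11 and MRPL46, both of which were lower (-0.27 and -0.13). Of 16 pairs, 13 had both genes tested. In 7 of them both genes were lower, in 2 both were higher, in 1 they moved in opposite directions, and in 3 at least 1 gene did not pass. For comparison, 72.7% of all members and 38.0% of all genes tested were lower, and 10.4% and 34.2% were higher. Pairs outside the members were not counted, so whether paired genes moved together more often than other genes was not tested. The pair in opposite directions was MRPL30 (-0.30) and MITD1 (1.21). In the pair of MRPL36 and NDUFS6, a subunit of respiratory complex I, the neighbour had the larger fall (-0.67 and -1.03).

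Some members cannot be fully separated from other transcripts. Exons of 16 members overlap another gene on the same strand, among them MRPL12, MRPS16, MRPS24 and MRPS6, and exons of 29 overlap a gene on the other strand, and the sources used here do not say whether counting used strand. The table holds 73 rows of numbered pseudogenes for 34 members, of which 19 members have a row of at least 1 FPKM. MRPL35 has 4 such rows, and MRPS16, MRPS18C, MRPS21 and MRPS31 have 2 each, so reads of these genes may be split with the copies. MRPS26, MRPS34, MRPL12 and MRPS30 have no numbered pseudogene row.

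Of 6 mitoribosome subunits that carry other names 4 were lower (66.7%, against 38.0% of all genes), 1 was higher (16.7%, against 34.2%) and 1 did not pass, and 2 were higher under TPM, median-ratio and quantile scaling. AURKAIP1, a small-subunit protein, fell from 245 ± 12.4 to 111 ± 13.5 FPKM (log2 fold change -1.14, SE 0.08, limma adjusted p = 1.61e-06). ICT1, the earlier symbol of MRPL58, a peptidyl-tRNA hydrolase built into the large subunit, was at 60.9, 66.9, 69.5 and 63.7 FPKM in the vehicle libraries and 30.8, 28.95, 27.97 and 31.3 FPKM with JIB-04 (log2 fold change -1.12, SE 0.06, limma adjusted p = 2.25e-07). PTCD3, a small-subunit protein with pentatricopeptide repeats, rose from 101 ± 11.97 to 145 ± 10.6 FPKM (log2 fold change 0.53, SE 0.09, limma adjusted p = 0.000481). DAP3, the GTP-binding small-subunit protein, was at 341 ± 11.1 FPKM without and 356 ± 9.24 FPKM with JIB-04 and did not pass (adjusted p = 0.168 by limma).

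Of 25 factors of mitoribosome assembly that the table lists, 16 were lower (64%, against 38.0% of all genes). Another 5 were higher (20%, against 34.2%) and 4 did not pass, and the median log2 fold change of the list was -0.32. RBFA, which acts in maturation of the small subunit, fell from 31.97 ± 0.576 to 16.9 ± 0.662 FPKM (log2 fold change -0.90, SE 0.05, limma adjusted p = 3.33e-07), and the gene listed under WBSCR16, also known as RCC1L, from 51.1 ± 3.24 to 28.7 ± 0.682 FPKM (log2 fold change -0.82, SE 0.06, limma adjusted p = 1.08e-06). The GTPase GTPBP10 rose from 21.9 ± 3.598 to 39.4 ± 0.949 FPKM (log2 fold change 0.85, SE 0.10, limma adjusted p = 4.54e-05). Of 12 mitochondrial translation factors 6 were lower (50%, against 38.0% of all genes), 5 were higher (41.7%, against 34.2%) and 1 did not pass. MTFMT, which formylates the initiator methionyl-tRNA, was at 37.9, 35.1, 37.6 and 36.9 FPKM in the vehicle libraries and 14.1, 13.8, 13.3 and 13.3 FPKM with JIB-04 (log2 fold change -1.40, SE 0.05, limma adjusted p = 2.88e-08). TUFM, the elongation factor that brings aminoacyl-tRNA, fell from 454 ± 31.9 to 274 ± 9.27 FPKM (log2 fold change -0.73, SE 0.05, limma adjusted p = 1.8e-06), whereas the elongation and recycling factors GFM1 and GFM2 rose, with log2 fold changes of 0.57 and 0.69.

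**Figure D4:**
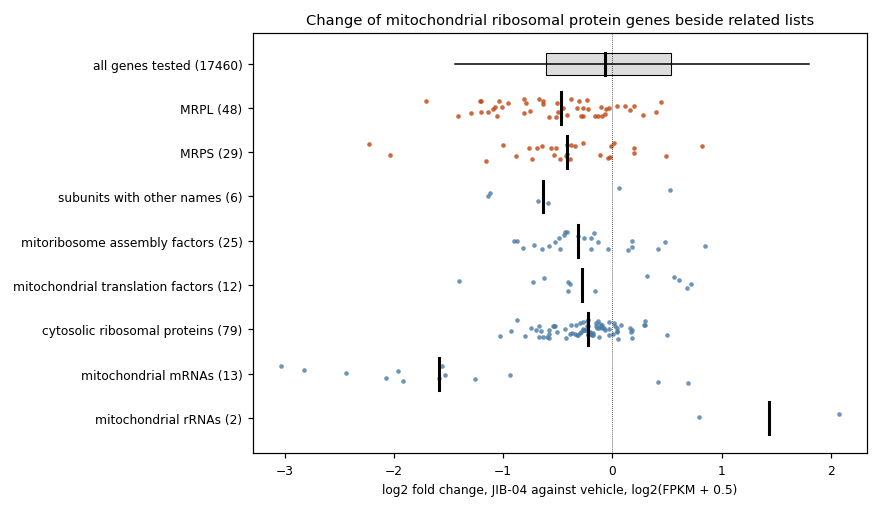
Log2 fold change (JIB-04 against vehicle, log2(FPKM + 0.5) scale) of each gene of the lists, with the number of genes in parentheses, a point per gene and the median as a black line. For all genes tested the box spans the middle 50% and the whiskers the 5th to 95th percentile. The medians include -0.07 for all genes, -0.47 for MRPL, -0.42 for MRPS, -1.59 for mitochondrial mRNAs and 1.43 for mitochondrial rRNAs.

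The RNAs that the mitoribosome translates and is built on had larger log2 fold changes than most of its proteins, and in opposite directions. Of the 13 mRNAs of the mitochondrial genome 11 were lower (84.6%, against 38.0% of all genes) and 2 were higher (15.4%, against 34.2%). At least 2-fold, 10 were lower (76.9%, against 11.8% of all genes). The summed FPKM of the 13 mRNAs went to 36.2% of vehicle, from 129687 to 138416 FPKM in vehicle to 42312 to 53580 FPKM with JIB-04. MT-CO3, a core subunit of cytochrome c oxidase, was at 14531, 16306, 16646 and 15412 FPKM in the vehicle libraries and 2151, 2015, 1715 and 1810.0 FPKM with JIB-04 (log2 fold change -3.04, SE 0.07, limma adjusted p = 2.93e-09), and MT-ND5 of complex I fell from 1445 ± 58.4 to 344 ± 27.1 FPKM (log2 fold change -2.07, SE 0.06, limma adjusted p = 7.06e-09). MT-ND1 and MT-ND2 rose, with log2 fold changes of 0.69 and 0.42. The ribosomal RNA of the small subunit, MT-RNR1, was at 1024, 1135, 1154 and 1139 FPKM in the vehicle libraries and 5241, 4837, 4191 and 4544 FPKM with JIB-04 (log2 fold change 2.08, SE 0.07, limma adjusted p = 1.44e-08), and MT-RNR2 of the large subunit rose from 4887 ± 493 to 8488 ± 1016 FPKM (log2 fold change 0.79, SE 0.10, limma adjusted p = 5.49e-05). The raised RNAs are the 4 that follow each other, MT-RNR1, MT-RNR2, MT-ND1 and MT-ND2, next to the heavy-strand promoters of the mitochondrial genome. The libraries were made from polyadenylated RNA, so that a level also depends on the tail of the RNA.

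**Figure D5:**
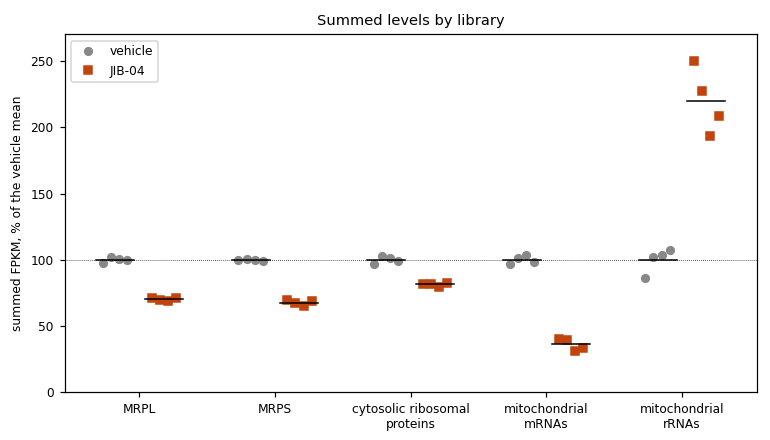
Summed FPKM of each list in each library, as a percent of the vehicle mean, with circles for vehicle, squares for JIB-04 and lines for group means. MRPL and MRPS genes lie at 70.2% and 67.7% of vehicle, cytosolic ribosomal proteins at 81.4%, mitochondrial mRNAs at 36.2% and mitochondrial rRNAs at 219.8%.

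Proteins of the cytosolic ribosome were also mostly lower, with a smaller median change. Of 79 genes 54 were lower (68.4%, against 38.0% of all genes), 6 were higher (7.59%, against 34.2%) and 19 did not pass. The median log2 fold change was -0.22. At least 2-fold in FPKM, 1 of the 79 was lower, RPS2 (-1.03), against 16 of the 77 mitochondrial ones. These are 1.27% and 20.8%, beside 11.8% of all genes. RPL3 fell from 2112 ± 47.3 to 1107 ± 29.1 FPKM (log2 fold change -0.93, SE 0.03, limma adjusted p = 1.58e-08). The summed FPKM of cytosolic ribosomal proteins was 11.7 ± 0.2 times that of mitochondrial ones in vehicle and 13.7 ± 0.1 times with JIB-04 (SD, n = 4 per group), without overlap. The count for the cytosolic list depended on scaling, with 29 lower and 18 higher in TPM. Of all 17460 genes tested, 5424 were lower and 7061 were higher in TPM.

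Of 11 regulators known to act on genes of the mitoribosome or on the mitochondrial genome, 4 were lower (36.4%, against 38.0% of all genes) and 7 were higher (63.6%, against 34.2%), and PPARGC1A did not reach the filter. GABPA, the ETS-family DNA-binding subunit of GABP, was at 7.75, 7.601, 7.22 and 9.09 FPKM in the vehicle libraries and 19.6, 16.2, 26.5 and 20.3 FPKM with JIB-04 (log2 fold change 1.31, SE 0.14, limma adjusted p = 2.2e-05), and its partner GABPB1 rose from 48.1 ± 4.03 to 68.7 ± 5.28 FPKM (log2 fold change 0.51, SE 0.08, limma adjusted p = 0.000221). Every JIB-04 library of both genes lay above every vehicle library. NRF1, a transcription factor of nuclear genes for mitochondria, fell from 18.9 ± 1.06 to 12.1 ± 0.278 FPKM (log2 fold change -0.62, SE 0.06, limma adjusted p = 1.28e-05). PPARGC1B, a coactivator of such genes, fell from 14.5 ± 1.01 to 6.24 ± 0.402 FPKM (log2 fold change -1.16, SE 0.08, limma adjusted p = 1.02e-06). TFB2M, which opens mitochondrial promoters, rose from 37.4 ± 3.39 to 70.1 ± 1.23 FPKM (log2 fold change 0.90, SE 0.07, limma adjusted p = 1.56e-06), and YY1 was at 81.3, 87.9, 85.5 and 87.03 FPKM in the vehicle libraries and 87.7, 89.7, 111 and 111 FPKM with JIB-04, with overlap (log2 fold change 0.22, SE 0.09, limma adjusted p = 0.0474). MYC rose with a log2 fold change of 0.40 and POLRMT, the mitochondrial RNA polymerase, fell with one of -0.65.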

How the data were processed

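RNA-seq libraries of A673 cells, 4 given vehicle and 4 given 2 µM JIB-04 for 36 hours, were grouped by their sample titles. Per the labels and the paper's methods, the authors aligned directional single-end poly(A) reads to GRCh38 with GSNAP (as the submitters' processing notes also say), processed them with SAMtools and calculated FPKM per gene with Cufflinks. The annotation release was not given in the sources used here. The deposited FPKM were used without further normalization. Of 65975 Ensembl identifiers, 117 had several entries, which were summed, and 13 with a placeholder value were left out, none of them a member. In 33 rows a gene name turned into a date was restored from its identifier.

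The groups were compared by limma 3.58.1 in R 4.3.3 (eBayes with a trend) on log2(FPKM + 0.5) of genes averaging 1 FPKM or more, which understates changes of genes at low levels, with Benjamini-Hochberg adjustment over all genes tested. Exact permutation tests of single genes and all tables used Python 3.11.15 (numpy 2.4.6, pandas 2.3.3, scipy 1.17.1, statsmodels 0.14.6, matplotlib 3.10.9). Absolute depth is unknown from FPKM, so precision rests on the spread between libraries. Coordinates, GC content and overlaps came from GENCODE release 29.

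The members and gene lists were chosen with earlier results of these data known. Named by rule were, per subunit, the 6 lowest and 3 highest log2 fold changes, all higher calls, the highest and lowest vehicle levels, the MRPS18 family, MRPS30, MRPS36, stalk, decoding and tunnel proteins, MRPL58, and the 2 genes with the smallest adjusted p of each other list. Genes named beyond these were chosen after their values were seen. Alternatives were other pseudocounts (0.1 and 1), no filter or one of 5 FPKM, TPM, median-ratio and quantile scaling, analysis of variance on FPKM (the study's test), a replicate block, leaving out each library, subunits by place, summed identifiers and, added after seeing the data, removal of the GC trend.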

Additional observations from a re-analysis of the deposited data

Results flagged for a closer look

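In groups of 4 libraries, 5 of 108 sets of values had a library apart from the other 3 by Dixon's criterion (the gap to the nearest library as a part of the range), and chance alone gives about 1 in 20. Among members, MRPS34 was highest in vehicle replicate 1, at 552 FPKM against 503 FPKM in the next library, and MRPS31 was highest in vehicle replicate 4, at 40.6 FPKM against 37.5 FPKM. In MRPS34 that library lay farthest from the JIB-04 libraries, and in MRPS31 it lay nearest to them. The ratio of summed MRPL to summed MRPS FPKM was lowest in vehicle replicate 1, at 1.78 against 1.84 in the next library. Outside the members, MT-RNR1 was lowest in vehicle replicate 1, at 1024 FPKM against 1135 FPKM, and PPARGC1B was highest in JIB-04 replicate 4, at 6.83 FPKM against 6.10 FPKM.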

How the results depend on the processing

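Over the alternatives, 48 members were lower and 7 were higher under every setting, and 0 members were called in both directions. The number of members lower ran from 48 (TPM) to 60 (without vehicle replicate 1), and the number higher from 7 to 13 (TPM). Of the 16 members at least 2-fold lower in FPKM, those from MRPS27 (-1.16) to MRPS7 (-1.001) fell by less than 2-fold in TPM. In TPM the median log2 fold changes were -0.26 for all members, -0.31 for MRPL and -0.26 for MRPS, and with median-ratio scaling -0.36, -0.41 and -0.36. Quantile normalization gave an MRPL minus MRPS difference of -0.016. With the GC trend removed, MRPL came to -0.42 and MRPS to -0.36. Leaving out each library in turn gave medians of -0.47 to -0.42 for all members, -0.49 to -0.45 for MRPL and -0.47 to -0.40 for MRPS, and a difference of -0.06 to -0.03, in which vehicle replicate 1 gave the value nearest 0. For MRPS18C the same gave -0.013 (without vehicle replicate 1, a reversed direction) to 0.30. Of the subunits with other names 2 were higher under TPM, median-ratio and quantile scaling. Of the cytosolic ribosomal proteins 29 were lower and 18 higher in TPM, and 28 and 21 after quantile normalization. Of all 17460 genes tested, 5424 were lower and 7061 higher in TPM, and 6703 and 5941 after quantile normalization. The causes of these shifts were not tested, beyond the upward move of all genes by 0.15 in TPM.

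Libraries with the same replicate number in both groups did not deviate together (correlations of -0.058 to 0.0823), so the numbers were not taken as pairs. With a replicate block 53 members were lower and 8 were higher.

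FPKM carry no absolute depth, so small changes are limited by the spread over 4 libraries and by scaling: MRPL10, MRPS36, MRPS23 and MRPL37 kept their calls in 11, 6, 12 and 8 of 18 settings. Simple counts of members do not depend on the choice among identifiers, since 56 were lower and 8 higher also with identifiers of a symbol summed.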
